A study of Solanum tuberosum with 22 samples.

Results

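Potato microtubers sampled in the middle of their culture, 10 days after tuber induction, were compared with microtubers from both ends of the course, 2 and 30 days, to find transcripts that peaked or dipped between the ends. The comparison used the 6 arrays of these 3 times out of 22 arrays in the series, and 16038 of the 32448 spots on the array (49.4%), those with a value on all 6. The fit behind the tests also took in the arrays of 5 and 20 days. Microtubers of Solanum tuberosum were grown in hormone-free tuber-induction medium with 8% sucrose, in continuous darkness at 20 degrees C, and all groups shared this treatment. Time was counted from the day on which tuber induction was seen, with 2, 5, 10, 20 and 30 days sampled and 2 arrays at each time. The 2 arrays of a time came from 2 microtuber populations, which the labels call biological replicates. Total RNA was labelled from random primers with Cy5 and hybridised against a Cy3-labelled pool of RNA from all developmental stages. The other 12 arrays hold plant-grown stolons and tubers and are not used here.

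A potato tuber forms when the tip of a stolon stops elongating and swells, while starch and storage proteins accumulate in it. Gibberellins delay this switch, and enzymes that inactivate gibberellins favour it. In vitro, sucrose-rich medium and darkness induce small tubers on stem cuttings, so that development can be followed from a visible start.

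Each value below is a log2 ratio of microtuber RNA to the pool, as deposited, and values of a pair are given as replicate 1 and then replicate 2. Changes are differences between such log2 ratios, given with their standard error or adjusted p, and a gene or spot that "stood at" a value had that difference in the main contrast defined below. The labels state the dyes but not the order of the ratio. Sample over pool was taken as the likely order, on the assumption of a pool of 5 equal parts. A sample that is 1 of these parts cannot exceed the pool by more than 2.32 on the log2 scale. On the 6 arrays 5 values lay above that bound, against 448 as far below zero. Were the order reversed, every rise below would read as a fall. All these arrays have the same dye orientation, and the 2 day arrays correlated with the 10 day arrays at r of -0.48 to -0.32 over the tested spots and with the 30 day arrays at -0.58 to -0.40, whereas replicates of 1 time correlated at 0.80, 0.63 and 0.77 for 2, 10 and 30 days. Array medians lay between 0 and 0.03, and 52.0% to 65.7% of spots had a value on each array.

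The main contrast was the 10 day mean minus the average of the 2 day and 30 day means, tested with limma on all 10 in vitro arrays with Benjamini-Hochberg adjustment over the 16038 spots and a threshold of 0.05. At 10 days, 451 spots were higher than the average of the ends (2.81% of the spots tested) and 153 were lower (0.954%). At least 2-fold differences were found for 199 of the higher and 24 of the lower spots. In bulk tissue a change in the share of a cell type and a change in RNA per cell cannot be told apart. All 604 called spots (3.77%) had the same sign in both replicates, which a call made on these same arrays favours. Over all 16038 spots the contrast had the same sign in 64.0% (Pearson r 0.63 and Spearman rho 0.44 between replicates, as a description over spots that share their arrays). The median contrast over all spots was 0.02, with a median standard error of 0.13.

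**Figure D1:**
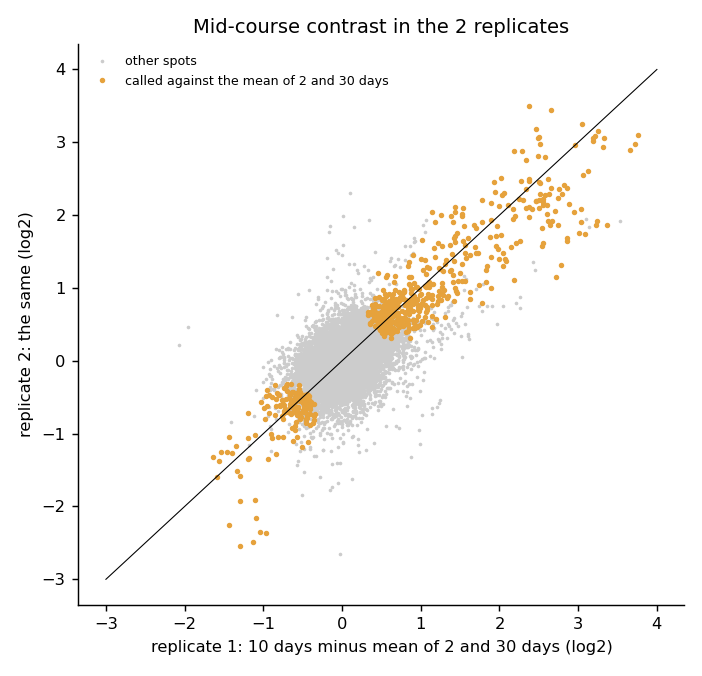
Contrast of 10 days with the mean of 2 and 30 days in replicate 1 (horizontal axis) and replicate 2 (vertical axis), in log2 units, for 16038 spots. The 604 called spots, called on these same arrays, lie on the same side of zero in both replicates, and the line marks equal values.

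Most of the called spots differed from 2 days and were not called against 30 days. The 10 day level was also set against each end alone, with comparisons that share the 10 day arrays and of which the main contrast is the average. Against 2 days, 2527 spots were higher (15.8%) and 2176 lower (13.6%), and against 30 days, 924 were higher (5.76%) and 558 lower (3.48%). Of the 451 spots that rose in the main contrast, 321 were above 2 days without a call against 30 days, 33 were above 30 days without a call against 2 days, and 93 were above both. Of the 153 that fell, 116 were below 2 days alone, 8 below 30 days alone and 28 below both.

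A peak in the strict sense, a level above each end by its own test, was found for 100 spots (0.624% of those tested), and a dip below each end for 34 (0.212%). At least 2-fold distances from each end were found for 17 of the peaks and 1 of the dips. The 10 day mean was the highest of the 5 times for 70 of the 100 peaking spots, the 5 day mean for 29 and the 20 day mean for 1. For the 34 dipping spots the lowest mean was at 10 days in 23 and at 5 days in 11. Both sets were picked for their 10 day level, which in itself favours an extreme mean at that time. Both 10 day values lay above all 4 values of the ends in all 100 peaking spots, against 1344 of all tested spots (8.38%), and below them in all 34 dipping spots, against 749 (4.67%). The calls were made on these same values, so this lack of overlap is no separate support for them. Against the average of 5 and 20 days, 0 of 16034 spots passed in limma, and 497 (3.1%) had an unadjusted p under 0.05.

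**Figure D2:**
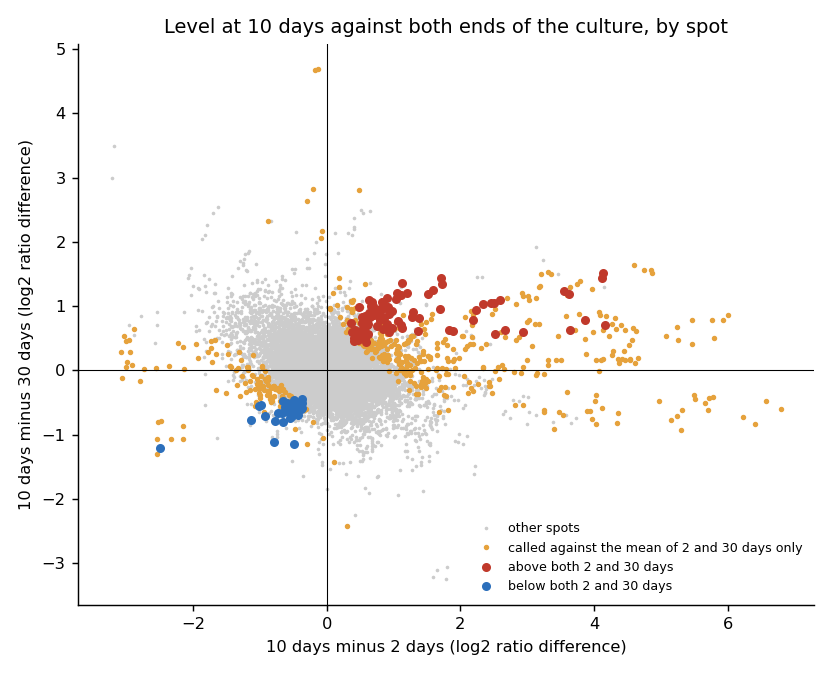
Difference of the 10 day level from 2 days (horizontal axis) and from 30 days (vertical axis), in log2 units, for 16038 spots. The 100 spots above both ends and the 34 below both are coloured, and many of the other called spots lie along the horizontal axis, apart from 2 days.

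These counts rested on both 10 day arrays, and several runs without 1 array also called spots that were not called with all arrays. Below both ends, most spots called without the first 10 day or the first 30 day array were not called with all arrays. Without the second 10 day array, 102 spots were higher and 3 lower in the main contrast, and 1 was above both ends, which was not among the 100. Without the first, 152 were higher, 50 lower and 28 above both. Without the second 2 day array, 797 were higher and 213 above both, and without the first, 61 were lower and 13 below both. Without the second 30 day array, 274 were higher, 76 lower, 37 above both and 5 below both, and without the first, 52 were above both. Below both ends there was 1 spot without the second 10 day array. Against 2 days alone, 1419 were higher and 1250 lower without the first 10 day array, 1341 and 1179 without the second, and 1367 were lower without the first 2 day array. Against 30 days alone, 252 and 166 were called without the first 10 day array, 103 and 24 without the second, 537 and 284 without the first 30 day array, and 521 and 320 without the second. The split of calls moved with the scaling of the arrays as well: 74.7% of the called spots were higher as deposited and 56.5% after quantile normalization.

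**Figure D3:**
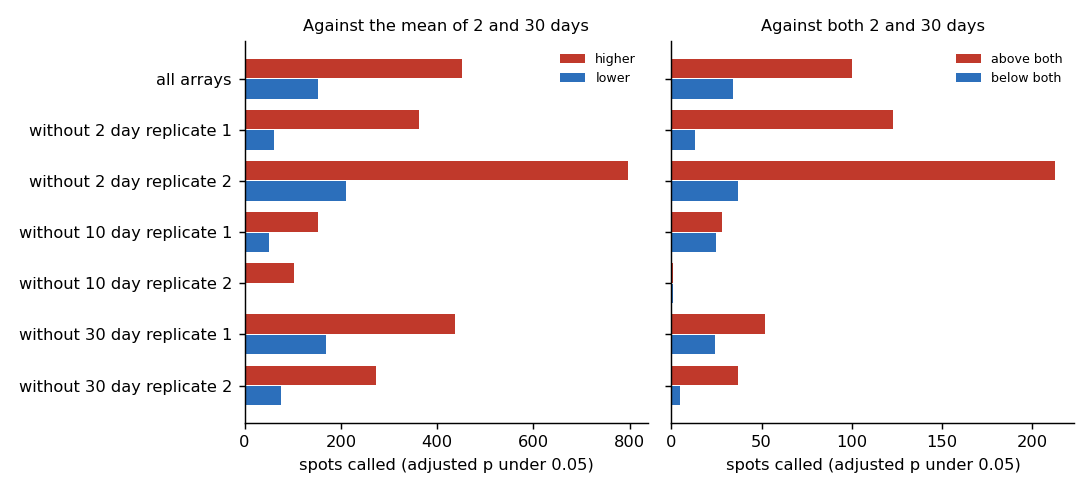
Number of spots called at an adjusted p under 0.05 with all arrays and without each of the 6 arrays in turn, against the mean of the ends (left) and against both ends (right). With 1 of the 10 day arrays left out, 152 or 102 spots were higher than the mean of the ends, against 451 with all arrays.

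The annotation of the array names 1 gene for 1630 spots, and 1173 of these, from 388 genes, were tested. In the main contrast 56 of these spots, from 26 genes (6.7% of the 388), were higher and 10 spots of 8 genes (2.06%) were lower. Of all tested spots 2.81% were higher and 0.954% lower. Among the spots above both ends 20 belonged to 11 genes, and among those below both 5 belonged to 4 genes. Averaged over all spots of a gene before testing, 32 of 388 genes were higher (8.25%) and 7 lower (1.8%), with 13 above both ends (3.35%) and 2 below both (0.515%), against a median contrast of 0.03 over the 388, of which 213 (54.9%) lay above zero. Without the first 10 day array 21 gene means were higher and 4 lower, and without the second 9 and 2. Where a gene is given below without a spot, its values are means over its spots, with p adjusted over the 388 gene means. Of all tested spots 3131 (19.5%) had an unadjusted p under 0.05 in the main contrast. Spots of 1 gene often carry the same clone and are not replicates of a condition.

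GA2OX1, a gibberellin 2-oxidase, which inactivates gibberellins, was above both ends. Its ratio to the pool on 1 of its spots was -0.56 and -0.32 at 2 days, 0.24 and 0.48 at 5 days, 0.53 and 0.67 at 10 days, -0.09 and 0.14 at 20 days and -0.60 and -0.43 at 30 days. It was high at 5 and 10 days, and the 2 day and 30 day values overlapped each other but not the 10 day values. The 10 day level exceeded the mean of the ends by 1.07 ± 0.13 (adjusted p = 0.00199), 2 days by 1.04 (adjusted p = 0.00117) and 30 days by 1.11 (adjusted p = 0.00599) in limma. Both GA2OX1 spots, which carry 1 clone, were above both ends. Leave-outs given for single genes, here and below, concern the main contrast and not the call above or below both ends. That call is covered only by the counts of spots given earlier, which rested on both 10 day arrays. Without the second 10 day array the change on this spot was 1.003 (adjusted p = 0.0537), whereas the mean over both spots passed without each of the 6 arrays in turn (highest adjusted p = 0.015).

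The list of hormone response and tuber induction regulators, with GA2OX1 in it, holds 6 genes, and all 6 gene means lay above zero with a median of 0.33, 3 of them past the threshold. Over all 388 gene means, 54.9% lay above zero and 8.25% were higher. BEL5, a BEL1-like transcription factor known in potato for a mobile transcript that favours tuberization, had gene means of -0.77 and -0.51 at 2 days, -0.10 and 0.04 at 5 days, 0.45 and 0.16 at 10 days, 0.33 and 0.40 at 20 days and 0.21 and 0.16 at 30 days. BEL5 was 0.53 ± 0.12 (adjusted p = 0.0174) above the mean of the ends and 0.95 (adjusted p = 0.00042) above 2 days, and its difference from 30 days was 0.12 (adjusted p = 0.556). Both 2 day values were below all others. ERS, an ethylene receptor, was 0.34 ± 0.09 (adjusted p = 0.0491) above the mean of the ends. Without the first 10 day array the adjusted p of BEL5 was 0.167, and that of ERS missed the threshold in 5 of the 6 leave-outs, all but that of the second 2 day array, with up to 0.248. The auxin-response repressors IAA2 and IAA3 had differences of 0.31 (adjusted p = 0.122) and 0.24 (adjusted p = 0.236), and the antimicrobial peptide gene sn1 of 0.03 (adjusted p = 0.9).

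**Figure D4:**
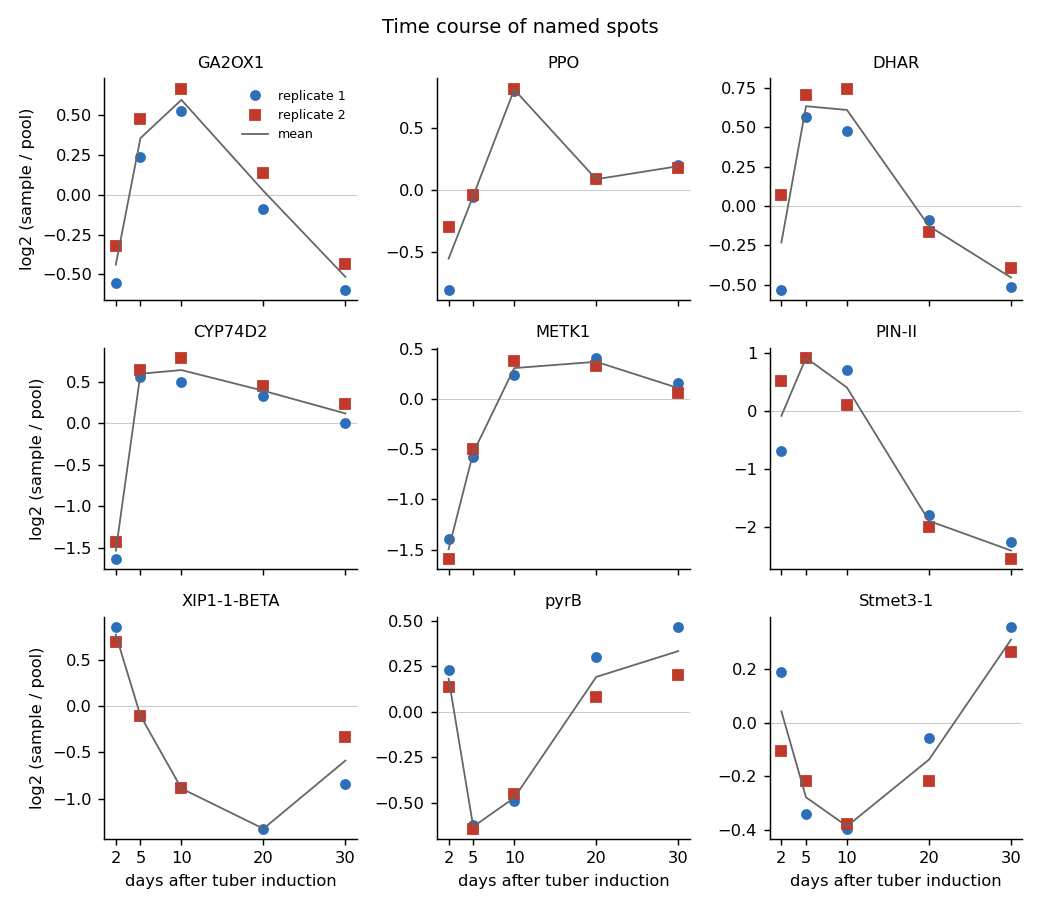
Log2 ratio to the pool on each array against days after tuber induction for 1 spot of each of 9 named genes, with points for the 2 replicates and lines through the means. GA2OX1, PPO and DHAR were high at 10 days and lower at both ends, CYP74D2 and METK1 were lowest at 2 days, PIN-II was lowest at 30 days, and the 3 genes of the bottom row were lower at 10 days than the mean of the ends.

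Among redox enzymes, the spots that rose were all of PPO and DHAR. The list has 6 genes with 21 tested spots, of which 8 were higher in the main contrast and 3 above both ends, against 2.81% and 0.624% of all tested spots. These 8 spots are of 2 genes and some share a clone, so they are not independent. The median of its 6 gene means was 0.19.

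PPO encodes a polyphenol oxidase, the enzyme that oxidises phenolics and browns cut tubers. Its ratio on 1 spot was -0.81 and -0.30 at 2 days, -0.06 and -0.04 at 5 days, 0.80 and 0.82 at 10 days, 0.08 and 0.08 at 20 days and 0.20 and 0.18 at 30 days. The 10 day values stood apart from every other time, and the 2 day values were the lowest. Its level at 10 days exceeded the mean of the ends by 0.99 ± 0.14 (adjusted p = 0.00438), 2 days by 1.36 (adjusted p = 0.00042) and 30 days by 0.62 (adjusted p = 0.0411). All 4 PPO spots, from 2 clones, were higher in the main contrast, with changes of 0.85 to 0.99, and 1 was above both ends. Without the second 10 day array this spot gave 0.98 (adjusted p = 0.0815).

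DHAR encodes a dehydroascorbate reductase, which regenerates the antioxidant ascorbate. On the spot that differed most from both ends the ratio was -0.53 and 0.07 at 2 days, 0.57 and 0.71 at 5 days, 0.48 and 0.75 at 10 days, -0.09 and -0.17 at 20 days and -0.51 and -0.40 at 30 days. It was high at 5 and 10 days and lower before and after, and of the end values the second at 2 days was the nearest to 10 days. At 10 days it exceeded the mean of the ends by 0.96 ± 0.17 (adjusted p = 0.0147), 2 days by 0.84 (adjusted p = 0.0101) and 30 days by 1.07 (adjusted p = 0.0128). Of 5 DHAR spots, 4 were higher in the main contrast and 2 above both ends, and the remaining spot stood at -0.20. Without the first or the second 10 day array this spot gave 1.09 (adjusted p = 0.0597) and 0.82 (adjusted p = 0.213). The gene mean was 0.71 ± 0.13 (adjusted p = 0.00681), and was lost only without the second 10 day array among the 6 leave-outs (adjusted p = 0.0989). DHAR2, listed as a separate gene, had a difference of -0.38 (adjusted p = 0.0865) and catalase CAT1 of 0.19 (adjusted p = 0.329).

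The oxylipin enzymes, which turn fatty acids into signals and defence compounds, had 2 spots higher and 1 lower of 11 from 4 genes, with a median gene mean of 0.33. Of all tested spots 2.81% were higher and 0.954% lower. CYP74D2, a divinyl ether synthase, had a ratio of -1.64 and -1.43 at 2 days, 0.56 and 0.64 at 5 days, 0.50 and 0.79 at 10 days, 0.33 and 0.45 at 20 days and 0.00 and 0.24 at 30 days. It was far below the pool at 2 days and at or above it from 5 days on. Microtubers of 10 days exceeded the mean of the ends by 1.35 ± 0.13 (adjusted p = 0.000476) and 2 days by 2.18 (adjusted p = 1.63e-05), with 0.52 (adjusted p = 0.0583) against 30 days. As the mean of its 2 spots, which carry 1 clone, it lay above both ends, by 2.18 (adjusted p = 2.67e-06) and 0.47 (adjusted p = 0.0327). It kept its call in the main contrast without each of the 6 arrays (highest adjusted p = 0.0148).

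LOX-H1, a lipoxygenase, fell on 1 of its 4 spots, where the ratio was 0.60 and 0.99 at 2 days, 0.06 and -0.27 at 5 days, -0.27 and -0.74 at 10 days, -0.71 in replicate 1 alone at 20 days and -0.12 and -0.09 at 30 days. The 2 day values were the only high ones there. The contrast was -0.85 ± 0.17 (adjusted p = 0.0375) on this spot, but the gene mean was -0.09 (adjusted p = 0.81), with spots from -0.85 to 0.37 over 3 clones. The call was lost in 5 of the 6 leave-outs, all but that of the first 2 day array, with an adjusted p of up to 0.328. The lipoxygenase POTLX-3 had a difference of 0.07 (adjusted p = 0.739) and the hydroperoxide lyase HPL of 0.60 (adjusted p = 0.0939).

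METK1 encodes an S-adenosylmethionine synthetase, which makes the methyl donor that also feeds ethylene and polyamine synthesis. Its ratio on 1 spot was -1.40 and -1.60 at 2 days, -0.58 and -0.49 at 5 days, 0.24 and 0.38 at 10 days, 0.41 and 0.33 at 20 days and 0.16 and 0.06 at 30 days. Both 2 day values were the lowest, and the 20 day values overlapped those of 10 days. Its level at 10 days exceeded the mean of the ends by 1.002 ± 0.11 (adjusted p = 0.001) and 2 days by 1.81 (adjusted p = 1.69e-05), with 0.20 (adjusted p = 0.345) against 30 days, and the call held without each of the 6 arrays (highest adjusted p = 0.0308). Over all 12 spots the gene means were -1.41 and -1.37 at 2 days, -0.52 and -0.44 at 5 days, 0.20 and 0.27 at 10 days, 0.92 and 0.55 at 20 days and 0.86 and 0.41 at 30 days, so that the values of 20 and 30 days lay above those of 10 days. As a gene mean the difference was 1.62 (adjusted p = 7.15e-05) from 2 days and -0.40 (adjusted p = 0.102) from 30 days. Of 12 METK1 spots, 5 were higher, over a range of 0.35 to 1.01, and the gene mean of 0.61 (adjusted p = 0.0244) lost its call without the first 2 day array or either 10 day array, with an adjusted p of up to 0.168.

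SAMDC, the S-adenosylmethionine decarboxylase of polyamine synthesis, was singled out after its values were seen, because it stood above 30 days instead. Its gene means over 6 spots were -0.14 and 0.18 at 2 days, 0.59 and 0.52 at 5 days, 0.14 and 0.39 at 10 days, -0.49 and -0.25 at 20 days and -0.69 and -0.44 at 30 days. Both 5 day values lay above those of 10 days. At 10 days it was 0.83 (adjusted p = 0.00504) above 30 days, with 0.24 (adjusted p = 0.208) against 2 days, and 0.54 ± 0.13 (adjusted p = 0.0302) above the mean of the ends. Of the 6 spots 1 was called. The call of the gene mean was lost without the first 2 day array, either 10 day array or the first 30 day array, with an adjusted p of up to 0.251. The other 3 genes of the list stood at -0.04 (adjusted p = 0.841) for METK2, -0.12 (adjusted p = 0.437) for the spermidine synthase SpdSy and -0.09 (adjusted p = 0.739) for ARD, an enzyme of methionine salvage, and the median over the list was -0.04.

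Of the storage proteins and protease inhibitors of tubers, 1 of 5 genes had a spot with a value on all 6 arrays, so patatin, KTI-C and API, the defining tuber proteins, could not be followed through this course. PIN-II, a proteinase inhibitor known in potato for its response to wounding, had a ratio of -0.69 and 0.53 at 2 days, 0.92 in replicate 2 alone at 5 days, 0.71 and 0.10 at 10 days, -1.79 and -1.999 at 20 days and -2.25 and -2.56 at 30 days. It was at or above the pool through 10 days in all but the first 2 day array and far below the pool from 20 days on. At 10 days it exceeded the mean of the ends by 1.65 ± 0.31 (adjusted p = 0.0286) and 30 days by 2.81 (adjusted p = 0.00599), with 0.49 (adjusted p = 0.348) against 2 days. Of 5 PIN-II spots 1 was called, and all 5 had changes of 1.24 to 1.65. The call was lost without either 10 day array or the second 30 day array, with an adjusted p of up to 0.191.

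In limma no spot was called of 25 from 8 genes of starch metabolism, with 6 at an unadjusted p under 0.05. The shares over all tested spots were 3.77% and 19.5%. Above zero lay 7 of the 8 gene means (54.9% of all gene means), with a median of 0.26. The highest was that of the starch synthase GBSS-II at 0.49 ± 0.17 (adjusted p = 0.0914). The glucan water dikinase R1 stood at 0.29 (adjusted p = 0.193), the phosphorylase glgP at 0.29 (adjusted p = 0.267) and the alpha-amylase AMYA1 at -0.23 (adjusted p = 0.395). None of these passed the threshold. Of the 6 sucrose and nucleotide sugar genes (median 0.05) UGPase, which makes UDP-glucose, passed as a gene mean, at 0.46 ± 0.12 (adjusted p = 0.0302). Its level was 0.76 (adjusted p = 0.00139) above 2 days and 0.17 (adjusted p = 0.384) against 30 days, and the call was lost without the first 2 day array, either 10 day array or the first 30 day array (adjusted p up to 0.183). The vacuolar invertase PAIN-1 stood at -0.09 (adjusted p = 0.779).

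TPT, the translocator that exchanges triose phosphate and phosphate across the plastid envelope, had 2 of 4 spots above both ends. On 1 of these the ratio was -0.23 and -0.14 at 2 days, 0.28 and 0.54 at 5 days, 0.31 and 0.72 at 10 days, -0.01 and -0.20 at 20 days and -0.27 and -0.71 at 30 days. The values at 5 and 10 days overlapped and were above those of the other times. The 10 day level exceeded the mean of the ends by 0.85 ± 0.17 (adjusted p = 0.0254), 2 days by 0.70 (adjusted p = 0.0225) and 30 days by 1.01 (adjusted p = 0.0154). The gene mean did not pass, at 0.42 (adjusted p = 0.0856), with spots from 0.05 to 0.85 over 2 clones. On this spot the call was lost without the first 2 day, the second 10 day or the second 30 day array (adjusted p up to 0.291). The list of glycolysis, fermentation and plastid carbon metabolism had a median of -0.01 over 10 genes. The 2 TPT spots were its only called ones of 35, with 9 at an unadjusted p under 0.05. Of all tested spots 3.77% were called and 19.5% had such a p. ADH1, an alcohol dehydrogenase, stood at 0.53 (adjusted p = 0.0856) and was 1.55 (adjusted p = 0.00141) above 30 days.

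The mitochondrial list of 15 genes had a median gene mean of -0.07, with 1 gene higher, 1 lower and 3 above zero. Of all 388 gene means, 8.25% were higher, 1.8% lower and 54.9% above zero. Fumarase (fum1) of the citric acid cycle had a ratio of 0.60 and 0.62 at 2 days, -0.06 and -0.06 at 5 days, -0.53 and -0.60 at 10 days, -0.999 and -0.71 at 20 days and -0.74 and -0.49 at 30 days. It was above the pool at 2 days alone, and its 10 day and 30 day values overlapped. The contrast was -0.57 ± 0.12 (adjusted p = 0.034), with -1.18 (adjusted p = 0.000436) against 2 days and 0.05 (adjusted p = 0.857) against 30 days. Alpha-MPP, a subunit of the peptidase that removes import sequences, stood at 0.50 ± 0.11 (adjusted p = 0.0201) as a gene mean, and was 1.20 (adjusted p = 9.9e-05) above 2 days. The call of fum1 was lost without the first 2 day, either 10 day or the second 30 day array (adjusted p up to 0.29), and that of Alpha-MPP without the first 2 day or the second 10 day array (up to 0.198).

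Of the dips below both ends, 5 spots had a gene name. pyrB, an aspartate carbamoyltransferase of pyrimidine synthesis, had a ratio of 0.23 and 0.14 at 2 days, -0.62 and -0.64 at 5 days, -0.49 and -0.45 at 10 days, 0.30 and 0.08 at 20 days and 0.47 and 0.20 at 30 days on 1 of its 6 spots. It was low at 5 and 10 days and above the pool at the other times, with no overlap. The 10 day level was -0.73 ± 0.12 (adjusted p = 0.00959) from the mean of the ends, -0.66 (adjusted p = 0.00632) from 2 days and -0.81 (adjusted p = 0.00952) from 30 days. The other 5 spots were not called and the gene mean was -0.27 (adjusted p = 0.137), with spots from -0.73 to 0.33 over 3 clones. Without the first or the second 10 day array the spot gave -0.71 (adjusted p = 0.0885) and -0.75 (adjusted p = 0.109).

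Stmet3-1, an ATP sulfurylase, which starts sulfate assimilation, had a ratio of 0.19 and -0.10 at 2 days, -0.34 and -0.22 at 5 days, -0.40 and -0.38 at 10 days, -0.06 and -0.22 at 20 days and 0.36 and 0.26 at 30 days. Both 10 day values were below all others, and the 30 day values were the highest. The contrast was -0.56 ± 0.12 (adjusted p = 0.0332), with -0.43 (adjusted p = 0.0398) against 2 days and -0.70 (adjusted p = 0.0163) against 30 days. The 4 spots had contrasts of -0.56 to -0.44, with 1 past the threshold, and the gene mean was -0.52 (adjusted p = 0.0244). As a gene mean it was not below both ends, with -0.36 (adjusted p = 0.0566) against 2 days and -0.685 (adjusted p = 0.00702) against 30 days. The call of the spot was lost in 5 of the 6 leave-outs, all but that of the second 2 day array (adjusted p up to 0.25). The second ATP sulfurylase gene, met3-2, stood at -0.37 (adjusted p = 0.197). The amino acid list that holds both had a median of -0.09 over 10 genes, with no other called spot of 31. Of all tested spots 3.77% were called.

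XIP1-1-BETA belongs to the aquaporin-like X intrinsic proteins, which are membrane channels. Its single tested spot had a ratio of 0.85 and 0.69 at 2 days, -0.10 and -0.10 at 5 days, -0.89 and -0.89 at 10 days, -1.32 in replicate 1 alone at 20 days and -0.84 and -0.34 at 30 days. It was high at 2 days and lowest at 20 days. The contrast was -0.98 ± 0.15 (adjusted p = 0.0101), with -1.66 (adjusted p = 0.000364) against 2 days and -0.30 (adjusted p = 0.297) against 30 days. Without the first or the second 10 day array the change was -0.98 (adjusted p = 0.0846) and -0.98 (adjusted p = 0.129). It was the 1 called spot of 12 from 4 membrane transport genes. Of 6 spots from 2 genes of proteolysis and cell death none was called in limma, with 2 at an unadjusted p under 0.05. Of all tested spots 3.77% were called and 19.5% had such a p.

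Among kinases and phosphatases, limma called no spot of 35 from 14 genes, with 8 at an unadjusted p under 0.05. The shares over all tested spots were 3.77% and 19.5%. Above zero lay 11 of 14 gene means (54.9% of all gene means), with a median of 0.13. The subunits of the sugar-sensing kinase SnRK1 were the 2 that passed as gene means. PKIN1, a catalytic subunit, stood at 0.51 ± 0.14 (adjusted p = 0.0431) and GAL83, a beta subunit, at 0.46 ± 0.11 (adjusted p = 0.0267). Both were above 2 days, by 0.73 (adjusted p = 0.00482) and 0.74 (adjusted p = 0.00136), and differed from 30 days by 0.30 (adjusted p = 0.197) and 0.19 (adjusted p = 0.331). Each lost its call in 5 of the 6 leave-outs, all but that of the second 2 day array, with an adjusted p of up to 0.215 for PKIN1 and 0.174 for GAL83. The MAP kinase StMPK4 had the lowest gene mean of the list at -0.48 (adjusted p = 0.065).

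**Figure D5:**
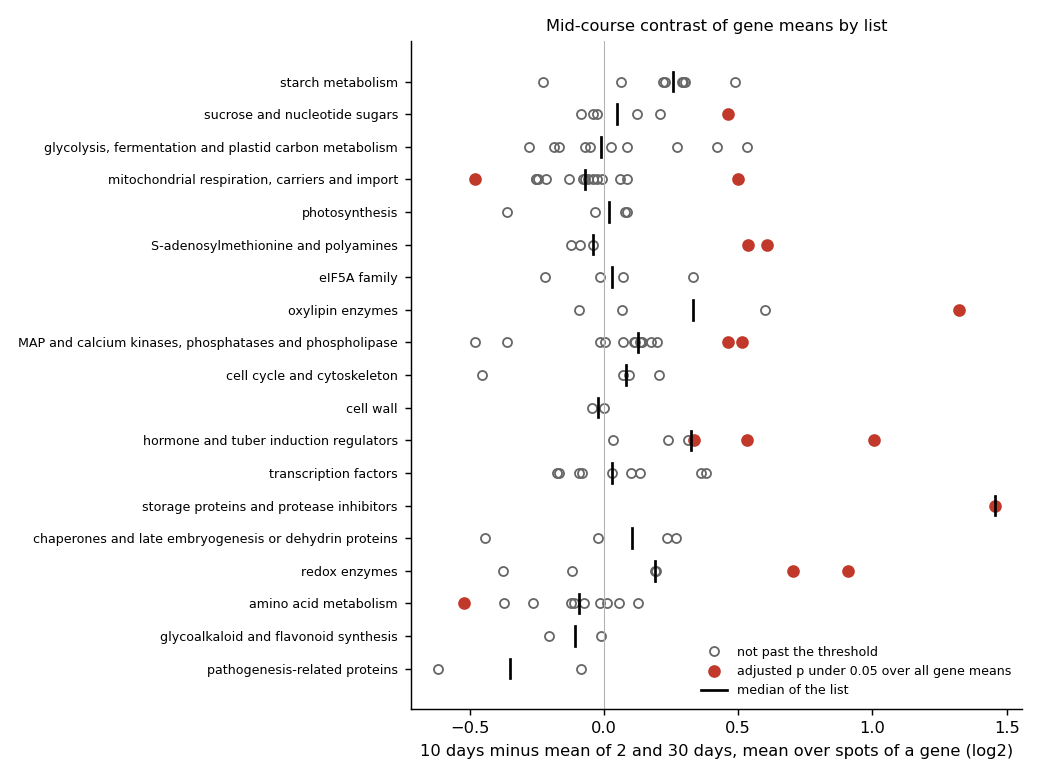
Contrast of 10 days with the mean of 2 and 30 days for gene means, in log2 units, with 1 row for each of 19 lists of genes. Filled points passed an adjusted p of 0.05 over 388 gene means, and bars mark the median of a list.

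Several lists had no called spot or gene mean for the main contrast in limma. The shares over all tested spots were 3.77% called and 19.5% at an unadjusted p under 0.05. Photosynthesis had 18 spots of 4 genes (median 0.02) and cell cycle and cytoskeleton 11 of 4 genes (median 0.08), both with 0 spots at an unadjusted p under 0.05. The eIF5A translation factors had 1 such spot of 11 from 4 genes (median 0.03), and transcription factors outside the hormone list 3 of 25 from 9 genes (median 0.03). Among photosynthesis genes, which mark green shoot tissue, the photosystem II protein OEE2 stood at -0.36 (adjusted p = 0.0856) and the chlorophyll-binding protein gene cab1 at 0.08 (adjusted p = 0.698). The main contrast can miss a gene whose 10 day level lies between the ends. At 10 days OEE2 was -1.20 (adjusted p = 0.000133) from 2 days and 0.48 (adjusted p = 0.0252) from 30 days. For cab1 these differences were 0.27 (adjusted p = 0.107) and -0.12 (adjusted p = 0.548). Among D-type cyclins, which mark dividing cells, CYCD3.2 stood at 0.07 (adjusted p = 0.677) and CYCD3.3 at -0.45 (adjusted p = 0.193). At 10 days CYCD3.2 was -0.37 (adjusted p = 0.0229) from 2 days and 0.515 (adjusted p = 0.00988) from 30 days. For CYCD3.3 the differences were -0.94 (adjusted p = 0.00828) and 0.04 (adjusted p = 0.914). Chaperones and late embryogenesis proteins had a median of 0.11 over 4 genes with 5 of 18 spots at an unadjusted p under 0.05, and cell wall genes -0.02 over 2 with 0 of 3. Glycoalkaloid and flavonoid genes had -0.11 over 2 genes with 2 of 9 such spots, and pathogenesis-related genes -0.35 over 2 with 2 of 5. Whether shifts in these tissues take part in the results above was not tested.

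Among called spots with a gene name, the largest changes belonged to genes that the annotation gives only as locus numbers. LOC102577568 had a ratio of -4.64 and -3.84 at 2 days, -0.22 and 0.30 at 5 days, 1.12 and 1.34 at 10 days, 0.95 and 1.06 at 20 days and 0.26 and 0.63 at 30 days. It was far below the pool at 2 days, close to the pool at 5 days and above it afterwards. Its 10 day level was 3.13 ± 0.23 (adjusted p = 0.000116) above the mean of the ends and 5.47 (adjusted p = 1.57e-06) above 2 days, with 0.78 (adjusted p = 0.0951) against 30 days. LOC102601295 stood at 3.15 ± 0.44 (adjusted p = 0.00467), LOC102577559 at 2.50 ± 0.40 (adjusted p = 0.0104) and LOC102599310 at 2.35 ± 0.20 (adjusted p = 0.00024), and none of these passed against 30 days. Of the 4 LOC102601295 spots, from 2 clones, 2 were called, over a range of -0.23 to 3.15, and the gene mean was 1.47 (adjusted p = 0.00353). Without the second 10 day array LOC102601295 gave 2.65 (adjusted p = 0.0968) and LOC102577559 2.39 (adjusted p = 0.142), and LOC102577559 gave 2.60 (adjusted p = 0.0761) without the first. LOC102577637 differed in its course, with a ratio of -3.32 and -3.47 at 2 days, -3.47 and -3.64 at 5 days, 0.15 and -0.14 at 10 days, 0.73 in replicate 2 alone at 20 days and 1.14 and 0.69 at 30 days. It was still far below the pool at 5 days, and its 10 day level was 3.41 (adjusted p = 8.52e-06) from 2 days and -0.91 (adjusted p = 0.0204) from 30 days, between the ends. Without the first 10 day array its change was 1.11 (adjusted p = 0.0566).

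LOC102577652 and LOC102577499 were above both ends on both of their spots. LOC102577652 had a ratio of -2.74 and -2.06 at 2 days, -0.07 and -0.20 at 5 days, 1.06 and 1.39 at 10 days, 0.60 and 0.95 at 20 days and -0.17 and 0.25 at 30 days on 1 spot, highest at 10 days and without overlap with the ends. It exceeded the mean of the ends by 2.40 ± 0.21 (adjusted p = 0.000257) and 30 days by 1.18 (adjusted p = 0.019). LOC102577499 had a ratio of -1.06 and -0.25 at 2 days, 0.25 and 0.39 at 5 days, 0.79 and 0.94 at 10 days, 0.18 and 0.21 at 20 days and -0.36 and -0.29 at 30 days, and its 10 day values were above those of every other time. It exceeded the mean of the ends by 1.35 ± 0.19 (adjusted p = 0.0049), 2 days by 1.52 (adjusted p = 0.00118) and 30 days by 1.19 (adjusted p = 0.0142). Without the second 10 day array LOC102577499 gave 1.28 (adjusted p = 0.096) on this spot.

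LOC102606273 showed the deepest dip among spots with a gene name. Its ratio was 0.41 and 0.00 at 2 days, -1.60 and -1.74 at 5 days, -1.74 and -2.84 at 10 days, -1.60 and -1.89 at 20 days and -0.999 and -1.15 at 30 days. On this spot, the 1 of its 2 spots below both ends, it was above or at the pool at 2 days. It was lowest at 10 days in both replicates, and partly back at 30 days. At 10 days it was -1.85 ± 0.26 (adjusted p = 0.00501) from the mean of the ends, -2.49 (adjusted p = 0.000522) from 2 days and -1.21 (adjusted p = 0.0376) from 30 days. LOC102578769, with 2 spots below both ends, stood at -0.67 ± 0.13 (adjusted p = 0.0265), and gave -0.48 (adjusted p = 0.295) without the second 10 day array and -0.66 (adjusted p = 0.057) without the first 2 day array. LOC102585502 stood at -0.68 ± 0.14 (adjusted p = 0.0296) with -0.08 (adjusted p = 0.782) against 30 days, and was lost without the first 2 day, either 10 day or the second 30 day array (adjusted p up to 0.212).

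PPS1 and MIP2 also peaked, as did LOC102583085. PPS1 had 4 of 8 spots above both ends, 5 called higher in the main contrast and a range of 0.72 to 1.12. On its spot farthest from both ends the ratio was -0.71 and 0.04 at 2 days, 0.56 and 0.90 at 5 days, 0.61 and 0.82 at 10 days, 0.12 and 0.00 at 20 days and -0.18 and -0.79 at 30 days. MIP2 had both spots above both ends, with a ratio of -0.22 and -0.12 at 2 days, 0.50 and 0.47 at 5 days, 0.28 and 0.30 at 10 days, -0.23 and -0.34 at 20 days and -0.18 and -0.30 at 30 days on 1 of them, where 5 days was the highest time. MIP2 exceeded the mean of the ends by 0.49 ± 0.10 (adjusted p = 0.0296) and PPS1 by 1.12 ± 0.23 (adjusted p = 0.0303). LOC102583085 was the 1 named gene above both ends whose highest level came at 20 days, with -0.67 and -0.81 at 2 days, -0.71 and -0.74 at 5 days, 0.28 and 0.39 at 10 days, 1.06 and 1.30 at 20 days and -0.14 and -0.74 at 30 days, and stood at 0.92 ± 0.16 (adjusted p = 0.0163). All 3 lost the call without the second 10 day array, with adjusted p of 0.254 for MIP2, 0.284 for PPS1 and 0.201 for LOC102583085. Each was also lost without other arrays, 3 for MIP2, 2 for PPS1 and 1 for LOC102583085.

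LOC102577801 was above both ends by narrow margins, with 0.44 (adjusted p = 0.0499) against 2 days and 0.54 (adjusted p = 0.0494) against 30 days, and 0.49 (adjusted p = 0.0684) in the main contrast. LOC102587659 stood at 1.82 ± 0.33 (adjusted p = 0.0172), with 4.03 (adjusted p = 0.000122) against 2 days and -0.38 (adjusted p = 0.556) against 30 days, and lost the call without either 10 day array (adjusted p up to 0.145). Of its 4 spots, from 2 clones, 2 were called, over a range of -0.32 to 1.82, with a gene mean of 0.75 (adjusted p = 0.0431) and 1.65 (adjusted p = 0.000402) against 2 days. Beyond the 15 genes with the largest rises, 11 more were called higher, some of them described above, with changes of 0.43 to 0.92 on their best spot. Of the 30 called spots named here, 7 kept their call without each of the 6 arrays in turn. These 7 spots belong to 6 genes: LOC102577568, LOC102577652, LOC102599310, CYP74D2, METK1 and LOC102606273.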

How the data were processed

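Microtubers of 5 culture times were hybridised in pairs of arrays against a pooled reference, and the authors deposited 1 log2 ratio per spot. Per the submitters' processing notes limma was used. Its version, and the background correction, normalization and filter that left values missing, were not given in the sources used here. Of the values, 97.5% lay within 0.001 of a ratio with 2 decimals, and 6 values of tested spots on the 6 arrays were at the lowest ratio, 0.01.

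Means of the 5 times were fitted to the deposited log2 ratios of the 10 in vitro arrays with limma 3.58.1 in R 4.3.3, with moderated variances and Benjamini-Hochberg adjustment over all spots with a value on the 6 arrays of 2, 10 and 30 days. Errors are standard errors from that fit. The number of arrays, 2 at each time, limits the precision. The p-values rest on the spread between the 2 arrays of a time, pooled over the 5 times and moderated over all spots. Differences between the 2 microtuber populations and between arrays are not told apart in that spread. The code was tested on simulated data. A peak or dip is a call with the same sign against both ends. Alternatives were the 6 arrays alone, a replicate block, median centring, quantile normalization, 2 other spot filters, the lowest ratio as missing, array weights, a robust prior, gene means and leaving out each array; leaving out arrays from the gene means was added after seeing the data.

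Genes come from the platform annotation, which names 1 gene for 1630 spots (430 genes, all matched to RefSeq symbols), several for 180 and none for 30638, and it can be old. A named spot had to have 1 gene. Up to 15 genes each way were named by change. Each was taken on its spot with the smallest p, among spots past the threshold with the same sign in both replicates. Up to 10 genes each way above or below both ends were named by the smaller difference. For each of a set of short gene lists, up to 4 spots with the smallest p were named. These further picks did not have to pass the main contrast. At most 2 unnamed spots each way were added. Gene means and the 19 lists compiled from the annotation's symbols were added to this. Members, lists and tests were chosen with earlier results of these data known.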

Additional observations from a re-analysis of the deposited data

How the results depend on the processing

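With the 6 arrays of the 3 times fitted alone, which leaves fewer residual degrees of freedom, 204 spots were higher and 36 lower in the main contrast, 465 higher and 237 lower than 30 days, and 27 above and 6 below both ends. After quantile normalization the counts were 1128 and 868 in the main contrast, 388 and 338 against 30 days, 179 above and 89 below both ends, and 63 and 20 against the mean of 5 and 20 days; the cause was not tested. With values on at least 8 of 10 arrays, 2 spots were higher than the mean of 5 and 20 days. The main calls were 85.0% higher with the 6 arrays alone. Arrays were not paired by replicate number in the main fit. Deviations of same-numbered arrays correlated above 0.1 in 4 of 10 pairs of times (-0.18 to 0.49), and at -0.09 to 0.19 among 2, 10 and 30 days. Whether arrays of the same number share a population was not tested. With a replicate block 174 spots were above both ends, and the main contrast had 599 higher and 200 lower spots. No other count moved by over 1.5 times with the block.

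Without 1 array in turn, the main contrast had 102 to 797 spots higher and 3 to 210 lower. The comparison with 2 days had 1341 to 2595 higher and 1179 to 2263 lower. That with 30 days had 103 to 1023 higher and 24 to 636 lower. Above both ends were 1 to 213 and below both 1 to 37, and against 5 and 20 days 0 to 1 and 0 to 6. No named spot changed sign under any alternative run. Of 31 named spots, 13 lost the call with the 6 arrays alone, 16 without the first 10 day array and 22 without the second. As gene means LOX-H1, TPT and pyrB lost it.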

Other observations

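Of the 100 peaks and 34 dips, 20 and 5 have a single listed gene, and the annotation used here lists no gene for the others. Among spots without a listed gene and without a value at the lowest ratio, the largest peaks and dips were these. The spot with the identifier 139733 had log2 ratios of -2.84 and -2.32 at 2 days, 0.15 and 0.82 at 5 days, 0.99 and 2.13 at 10 days, 0.62 and 0.73 at 20 days and -0.12 and 0.20 at 30 days, and 10 days exceeded the mean of the ends by 2.83 ± 0.30 (adjusted p = 0.000978). The spot 140577 had a course of -2.94 and -2.18 at 2 days, 0.11 and 0.74 at 5 days, 0.97 and 2.15 at 10 days, 0.62 and 0.78 at 20 days and -0.10 and 0.37 at 30 days, with a difference of 2.78 (adjusted p = 0.00201). Of the dips, spot 145976 stood at -0.96 ± 0.14 (adjusted p = 0.00688) with ratios of 0.56 and 0.54 at 2 days, -0.20 and -0.18 at 5 days, -0.64 and -0.53 at 10 days, -0.69 and -0.38 at 20 days and -0.03 and 0.41 at 30 days, and spot 147752 at -0.95 ± 0.20 (adjusted p = 0.032) with ratios of 0.36 and -0.43 at 2 days, -0.79 and -1.06 at 5 days, -0.86 and -0.79 at 10 days, 0.60 and 0.36 at 20 days and 0.31 and 0.29 at 30 days.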
